A study of Mus musculus with 12 samples.

Results

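Open chromatin far from genes was examined in embryoid bodies without Foxk1 at day 3 of mesodermal differentiation. A total of 3708 regions met the rule of being open in the knockout (KO) alone and distal. Each had an ATAC-seq summit in both KO libraries, no summit of any score within 1 kb in either control library, and more than 10 kb to both ends of every protein-coding gene (mm10, chromosomes 1 to 19 and X, summits merged into regions at 250 bp). They were 12.5% of the 29548 distal regions that were reproducible, meaning that either genotype had a summit there in both of its libraries, and part of 85620 day 3 regions in all. The regions were chosen by these day 3 summits, so the absence of control summits is their definition and not a finding.

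The study profiled 12 libraries of mouse embryoid bodies, aggregates that embryonic stem cells form when they differentiate, with 2 libraries in each of 6 groups and no doxycycline in any of them. The day 3 and day 5 groups were Foxk1 KO and iHA-Foxk1, another embryonic stem cell line of the study, taken here as the control at these days and labelled iFoxk1_ND. The day 10 groups were Foxk1 KO and libraries labelled Control, for which the labels name no line. The cell lines had been grown on irradiated fibroblast feeders, which a plating step removed, and the labels used here do not state the deleted part of Foxk1, the number of clones, or whether the paired libraries come from separate cultures. A p-value over libraries therefore measures only the spread between them, which may be technical.

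ATAC-seq marks open chromatin by the insertion of the Tn5 transposase, and a summit is the point of highest signal in a called peak. Open sites far from genes are often enhancers, which bind transcription factors and act on genes at a distance, and many of them change as pluripotent cells turn into mesoderm. Foxk1 is a forkhead transcription factor known mainly as a repressor that recruits the Sin3 corepressor complex. Read depth is unknown, because the lists hold no read counts. Day 3 lists held 53456 to 59006 summits per library and day 10 lists 4028 to 10548. The control lists of day 5, with 14519 and 34040 summits, were shorter than those of the KO, with 48391 and 42129. In Foxk1 itself, with 1 kb on either side, the KO libraries of day 3 held 3 and 5 summits and the control libraries 6 and 6, which does not test the knockout since open chromatin can remain at a gene that makes no protein.

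Of the 3708 regions, 36 overlapped a RefSeq promoter window of a gene that does not code for protein, 250 bases before to 50 after its start (GRCm38.p6, the assembly of mm10). That is 0.971% of them, against 0.638% of the distal control-only regions and 1.77% of the distal regions open in all 4 day 3 libraries. Shown are the windows of the 4 best-ranked genes whose window holds both KO summits, each a long non-coding RNA. Also shown is that of Gm5091, under a region whose nearest protein-coding gene is Dll1, 126487 bp away. Capitals mark the bases from the summit of one KO library to that of the other.
LOC108169175 (chr6:136553841-136554140, plus strand, inside Atf7ip): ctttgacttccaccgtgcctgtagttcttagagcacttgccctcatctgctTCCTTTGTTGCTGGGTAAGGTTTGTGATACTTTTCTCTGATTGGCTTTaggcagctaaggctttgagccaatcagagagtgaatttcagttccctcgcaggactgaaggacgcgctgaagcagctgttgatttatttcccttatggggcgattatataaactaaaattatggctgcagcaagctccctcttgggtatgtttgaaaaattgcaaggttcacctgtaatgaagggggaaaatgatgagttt
Gm51476 (chr7:35363078-35363377, minus strand, inside Rhpn2): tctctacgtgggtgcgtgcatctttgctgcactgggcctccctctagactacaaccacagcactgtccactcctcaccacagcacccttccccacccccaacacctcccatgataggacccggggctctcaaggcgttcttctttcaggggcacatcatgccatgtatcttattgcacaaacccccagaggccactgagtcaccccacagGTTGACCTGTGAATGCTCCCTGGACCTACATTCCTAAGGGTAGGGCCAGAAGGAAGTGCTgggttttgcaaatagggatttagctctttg
Gm33301 (chr15:40162331-40162630, plus strand): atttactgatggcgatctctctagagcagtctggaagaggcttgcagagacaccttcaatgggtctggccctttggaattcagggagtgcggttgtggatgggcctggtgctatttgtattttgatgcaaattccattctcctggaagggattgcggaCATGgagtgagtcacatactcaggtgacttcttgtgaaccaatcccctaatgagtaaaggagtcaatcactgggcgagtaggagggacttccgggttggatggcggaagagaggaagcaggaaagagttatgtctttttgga
Gm39066 (chr7:108184354-108184653, plus strand): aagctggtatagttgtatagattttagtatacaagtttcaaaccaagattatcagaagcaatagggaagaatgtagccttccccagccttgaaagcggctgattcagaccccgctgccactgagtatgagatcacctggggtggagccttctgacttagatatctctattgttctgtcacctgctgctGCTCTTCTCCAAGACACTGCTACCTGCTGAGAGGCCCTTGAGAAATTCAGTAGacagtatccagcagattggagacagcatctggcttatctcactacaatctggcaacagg
Gm5091 (chr17:15240734-15241033, minus strand): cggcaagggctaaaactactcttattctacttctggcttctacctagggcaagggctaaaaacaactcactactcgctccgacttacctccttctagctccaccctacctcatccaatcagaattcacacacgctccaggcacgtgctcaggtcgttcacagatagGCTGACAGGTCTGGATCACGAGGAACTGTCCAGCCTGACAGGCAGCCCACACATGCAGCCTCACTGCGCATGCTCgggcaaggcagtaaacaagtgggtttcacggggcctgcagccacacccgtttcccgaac
At day 5 the LOC108169175 region had a summit in both KO libraries and 1 control library, and the Gm51476 and Gm39066 regions had one in the KO libraries alone, in both of them. The Gm33301 region had none at day 5, and the Gm5091 region had one in 1 KO library. The letters GTAAACA, a forkhead core motif, were searched on both strands (TGTTTAC on the other). They were in 4 of the 41 windows that the 36 regions overlap, the Gm5091 window among them, and in 560 of all 11574 windows of genes that do not code for protein (4.84%) and 1198 of all 32619 windows (3.67%). A match of letters is a description and not a binding site. For regions away from these windows no sequence was used here.

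The 3708 regions stood low in their own lists. Their median rank was 68.1% of the way down the list of KO replicate 1 and 74.6% down that of KO replicate 2, where 0% is the highest score. Distal regions open in all 4 libraries had medians of 36.7% and 40.5% in the same lists. Only 8 of the 3708 were in the top 10% by mean rank and 477 (12.9%) in the upper 50%, against 66.1% of the 15506 shared distal regions. The mirror set, 3134 distal regions open in both control libraries with no KO summit within 1 kb, made up 10.6% of reproducible distal regions and had median ranks of 66.7% and 68.2% in the control lists. Of these control-only regions, 696 (22.2%) were in the upper 50% by mean rank and 2.9% in the top 25%, against 12.9% and 1.51% of the KO-only regions. The order of the counts turned with the rule: 3292 KO-only against 3384 control-only regions were found when all lists had the same length, and 345 against 496 when only summits in the upper 50% of a list were taken as present. The pair of KO summits in a region lay a median of 48 bp apart, against 43 bp in shared distal regions.

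The best-ranked region lay inside Atp6v1h, which encodes a subunit of the vacuolar proton pump (chromosome 1, 5110762 to 5110818, 27784 bp from a gene end). Its scores, the authors' −log10 values, were 271 and 316 in KO replicates 1 and 2, within the top 0.119% and 0.127% of their lists, and the nearest control summit was 27495 bp away. It stood far above the next, a region 45615 bp from the vomeronasal receptor gene Vmn2r114 (chromosome 17, 23245260 to 23245319), with ranks of 6.01% and 2.86%. The other 8 of the 10 best-ranked regions included 3 inside a gene, the serine protease gene Tmprss11d, Efcab12 and Wdr49. The nearest genes of the remaining 5 were Gm9595 at 57832 bp, the fibrillar collagen gene Col11a1 at 183450 bp, Tafa2 at 408265 bp, Adam6a at 832695 bp and Cntnap5b at 1253775 bp. Each of these 8 had both ranks between 2.54% and 13.6%. All 10 recurred in each KO library of day 5 and in no control library of that day, and none had a summit in a day 10 library. At day 5 the Atp6v1h region was at 2.26% and 1.94% of the KO lists, while the Tafa2 region, whose nearest control summit of day 3 was 2203 bp away, was at 65.8% and 93.1%. How reads from near-identical gene copies such as vomeronasal receptors were placed is not given in the sources used here, so the regions near Vmn2r114, Gm9595 and Adam6a are uncertain.

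At day 5, in libraries that took no part in choosing the regions, their summits were found far more often in the KO than in the control when full lists were used. A summit lay within 250 bp in 38.8% and 29.4% of the 3708 regions in KO replicates 1 and 2 and in 1.21% and 7.31% in control replicates 1 and 2. This gave a mean of 34.1% ± 6.64 in the KO against 4.26% ± 4.31 in the control (SD, n = 2 each), and the groups did not overlap. Distal control-only regions had a summit in 12.5% and 9.19% of cases in the KO libraries and in 4.79% and 13.6% in the control libraries, so that here the genotypes overlapped. Shared distal regions were also found more often in the KO, at 78.2% and 74% against 11.1% and 31.1%. KO lists of day 5 were longer, and control replicate 1 had the shortest list of days 3 and 5.

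**Figure D1:**
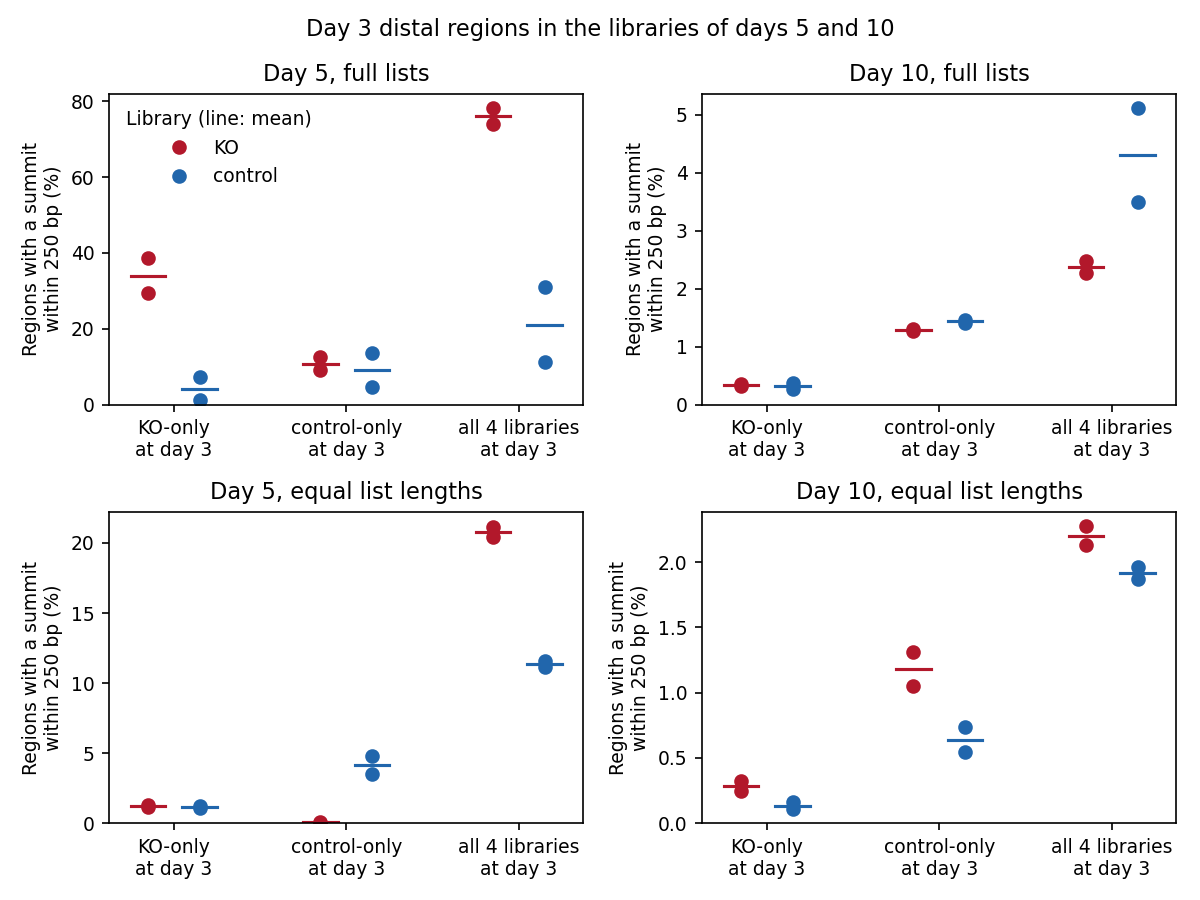
Share of distal day 3 regions with a summit within 250 bp in each library of days 5 and 10 (y axis, percent, scaled per panel) for regions open in the KO alone, in the control alone or in all 4 libraries at day 3. Points are libraries, lines are means of 2; with full lists at day 5 the KO-only regions are found in 38.8% and 29.4% in the KO libraries and 1.21% and 7.31% in the control libraries, and with equal list lengths in 1.13% and 1.27% against 1.21% and 1.05%.

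A longer list can raise the share of either set, so the balance between the sets was taken as well. KO-only regions were found 3.11 and 3.2 times as often as control-only regions in the KO libraries of day 5 and 0.254 and 0.538 times as often in the control libraries. As a difference, the share of KO-only minus that of control-only regions was 26.3 and 20.2 percentage points in the KO and −3.57 and −6.28 in the control, positive in 2 of 2 KO and negative in 2 of 2 control libraries. Averaged over days 5 and 10, this difference was 14.2 percentage points higher in the KO than in the control (28.2 at day 5 and 0.157 at day 10, two-sided exact permutation within days, p = 0.0556, the smallest that the 36 arrangements allow, adjusted p = 0.111 over 2 tests). The share of KO-only regions alone was 14.9 percentage points higher in the KO (29.8 at day 5 and 0.0135 at day 10, exact permutation p = 0.167, adjusted p = 0.167). Neither comparison could pass 0.05 in this design, and inside 1 day no p under 0.333 is possible.

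These differences depended on list length. Each day's lists were cut to the shortest, 14519 summits at day 5. KO-only regions then had a summit in 1.13% and 1.27% in the KO libraries. In the control libraries it was 1.21% and 1.05%, and the genotypes overlapped. The cut took the KO lists down from 48391 and 42129 summits and left control replicate 1 whole. Only 1.51% of KO-only regions were in the top 25% at day 3, so few could remain in KO lists cut by score. The overlap therefore cannot show that the genotypes are alike at these regions. Shared distal regions were still found more often in the KO (20.4% and 21.2% against 11.1% and 11.6%). Control-only regions were then found in 0% and 0.0957% in the KO and 4.79% and 3.54% in the control. The averaged differences became 0.108 percentage points for the share of KO-only regions and 1.89 for that share minus the control-only one (exact permutation p = 0.167 and 0.333). For the latter, day 5 gave 4.18, with 1.13 and 1.17 in the KO libraries against −3.57 and −2.49 in the control libraries, so the groups did not overlap. Day 10 went the other way by −0.394, with −0.985 and −0.81 in the KO against −0.435 and −0.572 in the Control libraries. On full lists, where the averaged differences were 14.9 and 14.2, leaving out KO replicate 1 gave 8.69 and 6.53. Leaving out KO replicate 2 gave 10.2 and 7.11. In both cases the regions were chosen anew from the KO library that remained at day 3. Peak names inside both KO lists labelled day 5 carry the tag D7, so a difference in day cannot be told apart from genotype.

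Counting regions by library, 668 of the 3708 had a day 5 summit in both KO and neither control library, and 836 in 1 KO library alone. A further 111 were in both KO and 1 control library, 28 in all 4, 68 in 1 of each, 8 in 1 KO and both control libraries, 61 in 1 control library alone and 2 in both control libraries alone. No day 5 library held the remaining 1926 (51.9%). With absence of a control summit within 1 kb, 659 (17.8%) were again KO-only at day 5, below the 27.9% of all reproducible distal day 3 regions that passed the same call. Only 2 were control-only at day 5, where 0.254% of all reproducible distal regions were. At equal list lengths 17 were KO-only and 11 control-only, while 4.54% and 1.16% of reproducible distal regions passed. Of the 15506 distal regions open in all 4 day 3 libraries, 40.5% passed the KO-only call of day 5 on full lists and 7.87% at equal lengths.

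Day 5 summits were concentrated at the position of the day 3 regions. In the 500 bp bins on either side of the centre, KO replicate 1 held 20.3 and 19.3 summits per 100 regions and KO replicate 2 held 15.1 and 15.1. In the next bin outward, KO replicate 1 held 0.674 on the lower and 0.701 on the upper side, below the 0.971 and 0.809 of the outermost bins, which end 5 kb from the centre. KO replicate 1 of day 3 had the same dip, with 0.701 and 0.782 against 1.16 and 1.29. From 1000 to 1500 bp, KO replicate 1 of day 5 held 1.46 on the lower and 0.863 on the upper side. Control replicate 2 had 3.94 and 3.88 at the centre and 0.351 in both next bins.

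**Figure D2:**
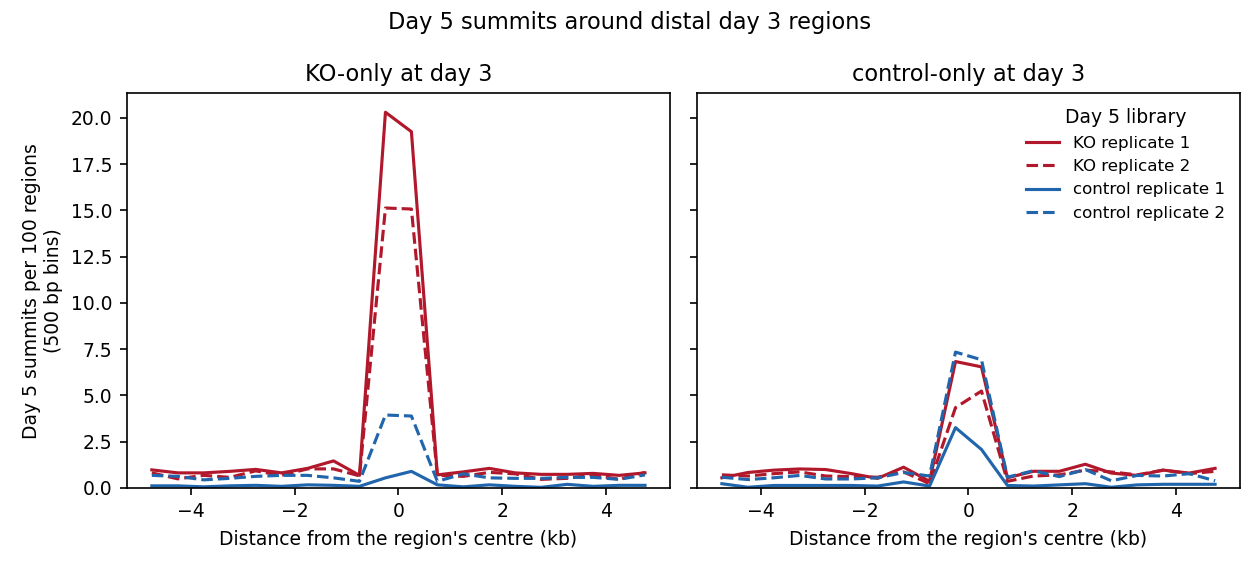
Day 5 summits per 100 regions in bins of 500 bp (y axis) by distance from the centre of the day 3 region (x axis, kb), for distal KO-only and distal control-only regions, 1 line per day 5 library. KO lines peak at 20.3 and 15.1 over KO-only regions and at 6.83 and 5.23 over control-only regions, while control replicate 2 peaks at 3.94 and 7.34.

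Recurrence in the KO followed the day 3 rank. Of the 65 regions with a mean rank between 20% and 30%, 54 (83.1%) had a summit in KO replicate 1 and 54 in KO replicate 2 at day 5. Between 50% and 60% it was 50.8% and 38.3% of 439 regions, and between 90% and 100% it was 21.7% and 10.6% of 378. The 2 best bands held only 8 and 17 regions, of which 8 and 15 recurred in each KO library. In control replicate 2 the share stayed between 4.79% and 9.23% over the bands from 20% down, and in control replicate 1 between 0.685% and 2.28%, with no order by rank. Shared distal regions of the same KO rank were found more often, at 94.1% and 93.5% between 20% and 30%, at 66.1% and 58% between 50% and 60%, and at 38.2% and 29.3% in the last band. Whether depth links day 3 rank and day 5 recurrence was not tested.

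**Figure D3:**
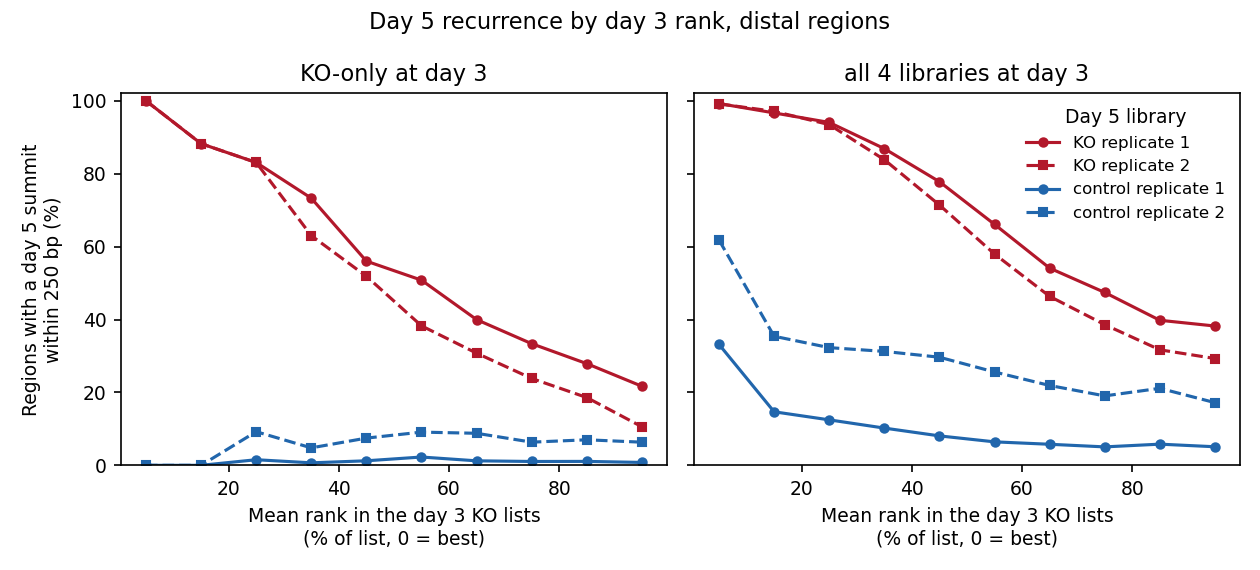
Share of distal day 3 regions with a day 5 summit within 250 bp (y axis, percent) by bands of 10% of mean rank in the day 3 KO lists (x axis, best at the left), for KO-only regions and for regions open in all 4 day 3 libraries, 1 line per day 5 library. For KO-only regions the KO lines fall from 100% in the first band, which holds 8 regions, to 21.7% and 10.6% in the last, while the control lines reach at most 9.23%.

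At day 10 almost none of the regions had a summit. The shares were 0.324% and 0.351% in the KO libraries and 0.378% and 0.27% in the Control libraries, which overlapped, and 21 of the 3708 had a summit in any of the 4. Control-only regions were found in 1.31% and 1.28% in the KO and 1.47% and 1.4% in the Control libraries. Day 10 lists are short and their peak names lack the duplicate-removal tag of the earlier days, so day and processing cannot be told apart. A summit in both KO libraries was present in 10 regions and in both Control libraries in 8, with 7 of them in all 4.

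These 7 lay near Vmn2r129, Gm21190, Scaf8, Mid1, Epha4, Gm17019 and Kcns3. The regions near Vmn2r129, Gm21190 and Gm17019 are uncertain for the reason given for Vmn2r114. Whether the other regions named here lie in repeated or duplicated sequence was not checked. The region 17456 bp from the vomeronasal receptor gene Vmn2r129 (chromosome 4, 156356955 to 156356975) ranked at 35.8% and 38% at day 3, at 22.7% and 14.3% in the KO lists of day 5, and at 9.96% and 7.07% in those of day 10. Its nearest control summit of day 3 was 101408 bp away, yet control replicate 2 had a summit there at day 5 and the Control libraries of day 10 had it at 19.1% and 25.5% of their lists. The region 796502 bp from Epha4, an ephrin receptor gene (chromosome 1, 76570505 to 76570680), ranked at 68.1% and 60.8% in the KO lists of day 3 and at 8.35% and 7.73% in those of day 10. Its ranks in the Control lists of day 10 were 5.66% and 13.8%. Only the region inside Sp140, an immune-cell nuclear body gene, was in both KO and neither Control library of day 10. It lies inside the overlapping gene Sp110 as well (chromosome 1, 85598704 to 85598708). Its ranks were 93.2% and 98.7%, at the bottom of these KO lists. Only the region near Ccdc54 (chromosome 16, 50528946 to 50528956) was in both Control and neither KO library, and it was in all 4 libraries of day 5.

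Regions that had summits in both control libraries of day 5 numbered 38 of 3708 (1.02%), against 129 of 3134 control-only (4.12%) and 1589 of 15506 shared distal regions (10.2%). Besides Ccdc54, the 10 best-ranked of them lay near Cdh9, Susd4, Sh3bp4, Ddr1, Zfp536, Igfbp2, Fam169b, Corin and Prickle1. Ddr1 encodes a collagen receptor kinase, Igfbp2 a binding protein of insulin-like growth factors, Corin a protease that processes natriuretic peptide and Prickle1 a component of planar cell polarity. Of these 10, all but the regions near Cdh9, Zfp536, Fam169b and Corin were also in both KO libraries of day 5. The Cdh9 region (chromosome 15, 15302614 to 15302624, 1425926 bp from this cadherin gene) was in both control and neither KO library at day 5. Its ranks in these control lists were 99.1%, at the very bottom, and 46.6%. At day 3 its ranks in the KO were 42.3% and 55.4%, and the nearest control summit was 104252 bp away.

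KO-only regions lay about as far from genes as other distal regions. Their median distance to the nearest gene end was 60632 bp, against 61356 bp for control-only and 62123 bp for shared distal regions. Inside a protein-coding gene lay 1292 (34.8%), against 39.3% of control-only and 35.4% of shared distal regions. Genes longer than 500 kb held 278, and 267 lay between genes and over 500 kb from any gene end. Within 10 kb of a gene end, the same day 3 call was passed by 1299 of 23819 reproducible regions (5.45%, and 3.88% in the control direction), and over all reproducible regions by 5007 of 53367 (9.38%). The nearest control summit of day 3 was a median of 17676 bp away, and 158 regions (4.26%) had none within 100 kb, against 75 (2.39%) of the control-only regions for KO summits.

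Distance from genes went with day 5 recurrence in the control libraries and not in the KO. Between 10 and 50 kb from a gene end, control replicate 2 had a summit in 10.4% of 1649 regions, and over 500 kb in 2.78% of 288. In KO replicates 1 and 2 the shares were 39.1% and 30.6% near and 39.6% and 27.8% far. Shared distal regions showed the same order, from 40.1% to 13.8% in control replicate 2 and from 78.8% to 78.1% in KO replicate 1. The pattern is therefore not particular to KO-only regions, and the control lists of day 5 were shorter.

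The regions were spread over many genes. Altogether 2527 protein-coding genes were nearest to at least 1 of them, 1812 of these to just 1, and 63 to at least 5. Among the 10 genes with most were Pcdh17 with 11 and Ralyl with 9. Cdh10 had 8 of 17 reproducible distal regions and 1700015G11Rik 8 of 16, each beside 2 control-only ones. Brinp3 had 7 of 30, Tbl1xr1 7 of 34, Adcyap1 7 of 33, Csmd1 7 of 28 and Ptprd 6 of 34. Beside these lay 5, 1, 3, 3 and 3 control-only regions, in this order. Over all distal regions the KO-only share was 12.5%. Pcdh17 and Cdh10 encode cadherin-type adhesion proteins of neurons, Ptprd a receptor phosphatase of synapses and Adcyap1 a neuropeptide, while Tbl1xr1 encodes a subunit of the NCoR corepressor. Around Pcdh17 the 11 regions spanned 2810681 bp and were 11 of 35 reproducible distal regions, beside 7 control-only ones, and 8 of them recurred in a KO library of day 5 and none in a control library. Around Ralyl, which encodes an RNA-binding protein, 9 of 23 were KO-only and none control-only, and 6 recurred in a KO library of day 5. The 7 regions near Brinp3 included 6 in both KO libraries of day 5. Near these 9 genes no KO-only region had a summit in a control library of day 5 or in any library of day 10.

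In windows of 1 Mb, 1866 held at least 1 region and 838 just 1. The densest, chromosome 8 from 123000001 to 124000000, held 12 of 30 reproducible distal regions, all between 123549104 and 123737187 next to Gas8, Rab4a and Rhou, and no control-only region. Over that stretch the KO libraries of day 3 had 36 and 31 summits and the control libraries 19 and 18, and at day 5 they had 25 and 15 against 3 and 22. Of the 12, 6 recurred in 1 KO library of day 5, none in both, and 2 in a control library. Among all 3708 regions, 9 lay in ribosomal RNA genes, and whether any of those are in this stretch was not checked. How reads from near-identical copies were placed is not given, so the 12 regions are uncertain if the stretch is repeated. A window of chromosome 7 (64000001 to 65000000) with Trpm1, Mcee, Apba2 and Fam189a1 held 9 of 20 and no control-only region, with 34 and 31 KO and 15 and 15 control summits at day 3 between its outer regions. Here 7 of the 9 recurred in a KO library of day 5. The others were on chromosome 8 at 40000001 to 41000000 near Adam25, Mtmr7, Vps37a, Zdhhc2 and Fgf20 (9 of 18, with 1 control-only), on chromosome 15 at 19000001 to 20000000 near Cdh10 and Cdh12 (9 of 15, with 1) and on chromosome 6 at 114000001 to 115000000 near Atg7 and Hrh1 (9 of 64, with 6). The last is 14.1%, near the 12.5% of all distal regions. In the Atg7 window the KO libraries of day 3 had 57 and 45 summits and the control libraries 47 and 48, so the genotypes overlapped. Runs of KO-only regions with no control summit between them were short: 3053 of 3356 runs held 1 region and the longest held 5, near Mrgpra4 on chromosome 7 (47830349 to 47912360). Runs of control-only regions were much the same, with 2605 of 2849 holding 1 region and the longest holding 6.

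By chromosome, the KO-only share of reproducible distal regions ran from 10.3% on chromosome 2 to 15.5% on chromosome 7, with a median of 12.9%. Control-only shares ran from 7.62% on X to 13.9% on chromosome 12. KO-only regions outnumbered control-only ones on 16 of 20 chromosomes, among them 8 (234 to 144) and 11 (177 to 112). They were fewer on the other 4, chromosomes 1 (254 to 271), 2 (236 to 250), 12 (152 to 194) and 17 (150 to 151). Day 5 recurrence of KO-only regions in the KO libraries was lowest on X (25.4% and 19.7% of 122) and highest on chromosome 1 (47.6% and 38.2% of 254).

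**Figure D4:**
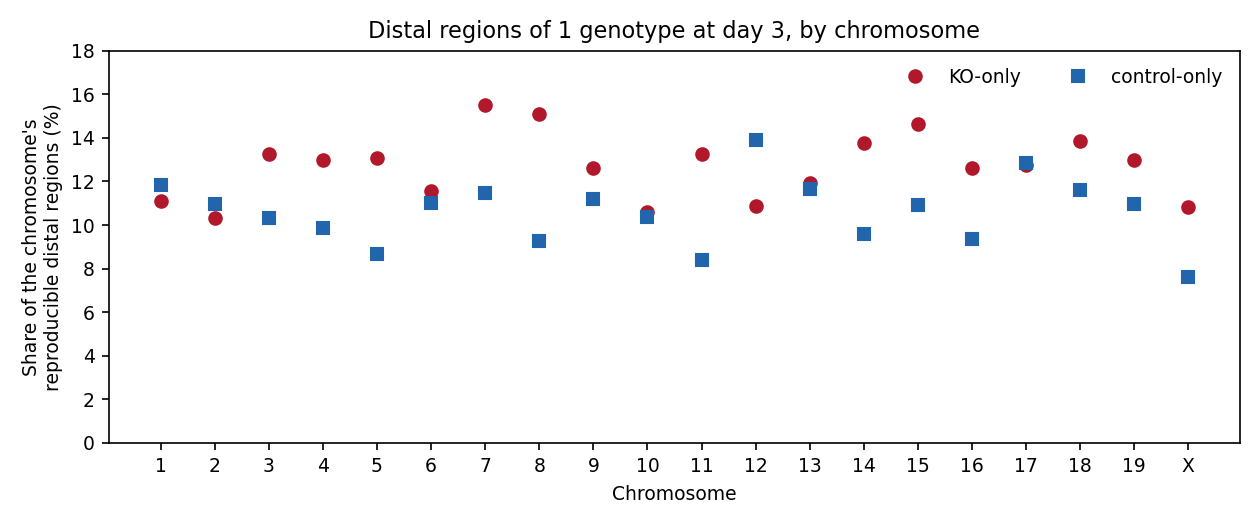
Share of each chromosome's reproducible distal day 3 regions (y axis, percent) that were KO-only (circles) or control-only (squares). KO-only shares range from 10.3% to 15.5% and control-only shares from 7.62% to 13.9%.

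Near developmental and metabolic genes the regions followed the background for the most part. Of 831 reproducible distal regions next to or inside 1 of the 349 listed genes found in the annotation, 101 were KO-only, against 12.5% over all distal regions. A region counted as next to or near a gene when that gene had the nearest end, at any distance. Of 20 lists, 6 had a KO-only share above 12.5%, and 8 had more KO-only than control-only regions, 9 fewer and 3 as many. The lists were chosen with results of these data known and were not tested.

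Next to pluripotency genes, 12 of 57 regions (21.1%) were KO-only and 6 control-only. The best-ranked lay 432226 bp from Sox2, a core factor of pluripotent and neural cells (chromosome 3, 35084687 to 35084706), at 28.5% and 21% of the KO lists, and recurred in KO replicate 2 at day 5. Others lay 21963 bp from Tbx3, 71237 bp from Tfcp2l1 and 519651 bp from Klf4, genes of pluripotency factors. Of the 12 just 1 recurred in both KO libraries of day 5. Neural regulators had 12 of 78 (15.4%) and 4 control-only, led by regions 945395 and 755143 bp from the neural factor gene Pou3f2. Autophagy genes had 11 of 62 (17.7%) and 5 control-only, near 3 genes, among them Atg7, named above for its window of chromosome 6, and Pik3c3, and 5 recurred in both KO libraries of day 5.

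Among the 9 lists with fewer KO-only than control-only regions, genes of primitive streak and early mesoderm had 3 of 36 regions KO-only (8.33%) and 13 control-only (36.1%). The best-ranked of the 3 lay 126487 bp from Dll1, a Notch ligand (chromosome 17, 15240793 to 15240867, the Gm5091 window shown above). Another lay near Snai1, a repressor of epithelial genes (chromosome 2, 167552998 to 167553008, 10184 bp). The last lay near Lhx1, a homeobox gene of the streak (chromosome 11, 84563104 to 84563110, 37570 bp). Each of them recurred in at least 1 KO library of day 5, and the Snai1 region in both and in control replicate 2. All 3 ranked low at day 3, between 63.9% and 91.4%. Cardiac progenitor genes had 9 of 100 KO-only and 16 control-only. Among the best-ranked were regions near Isl1, a homeobox gene of heart progenitors (chromosome 13, 116410821 to 116410875, 101133 bp), which had no day 5 summit, and near Tbx20, a T-box factor of the heart (chromosome 9, 24818736 to 24818737, 44433 bp), which recurred in both KO libraries alone.

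**Figure D5:**
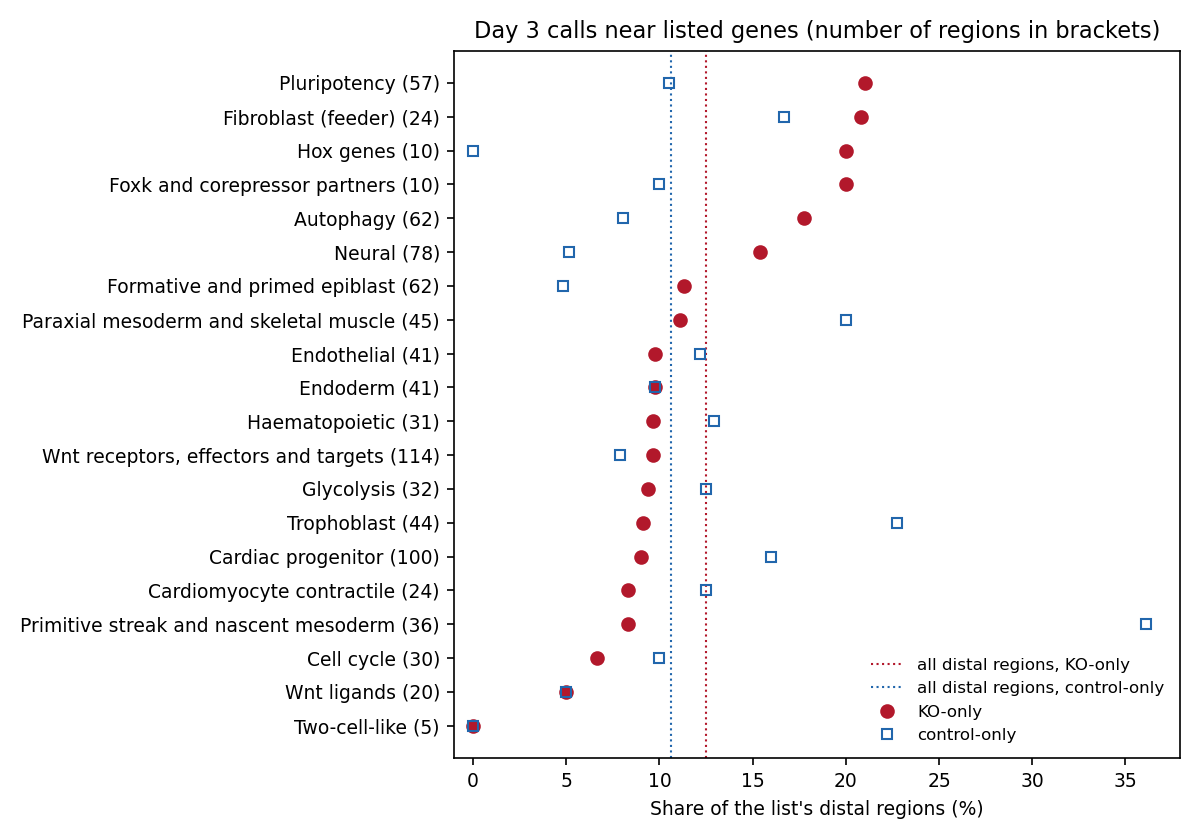
Share of the reproducible distal day 3 regions near each gene list (x axis, percent, number of regions in brackets) that were KO-only (filled circles) or control-only (open squares), with dotted lines at 12.5% and 10.6% for all distal regions. Pluripotency genes are at 21.1% and 10.5%, streak and nascent mesoderm genes at 8.33% and 36.1%.

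Most lists of other lineages had KO-only shares a little under the 12.5% of all distal regions. Contractile genes of cardiomyocytes had 2 of 24 (8.33%). The better-ranked lay 453604 bp from the calcium release channel gene Ryr2 (ranks of 21% and 21.6%, in the KO libraries alone at day 5). The other lay inside titin, Ttn. Endothelial genes had 4 of 41 (9.76%). They lay inside the growth factor receptor gene Flt1, 36164 bp from the receptor gene Kdr and 521156 bp from the cadherin gene Cdh5. Haematopoietic genes had 3 of 31 (9.68%), 405557 bp from Ptprc, 32549 bp from Myb and 11408 bp from Lyl1, the last inside Nfix. Paraxial mesoderm and skeletal muscle genes had 5 of 45 (11.1%), among them Myog, Meox2 and Pax7, and 9 control-only (20%). Trophoblast genes had 4 of 44 (9.09%), led by a region 612905 bp from Gata3, and 10 control-only (22.7%). Epiblast genes had 7 of 62 (11.3%), led by Pou3f1, and endoderm genes 4 of 41 (9.76%), led by Foxa2. Wnt receptors, effectors and targets had 11 of 114 (9.65%), led by a region 518821 bp from the receptor gene Fzd8. Next by rank were regions near Fzd4, Fzd8 and Fzd3. Wnt ligands had 1 of 20, near Wnt7b. Fibroblast genes, which mark the feeder cell type, had 5 of 24 KO-only (20.8%, level with pluripotency genes) and 4 control-only, near the collagen genes Col5a2, Col3a1 and Col1a2 and near Postn, and their part in the other results was not tested. Hox genes had 2 of 10 (20%), glycolysis genes 3 of 32 (9.38%), cell cycle genes 2 of 30 (both near Cdk6) and 2-cell-stage genes 0 of 5. Control-only regions numbered 3 for contractile, 5 for endothelial, 4 for haematopoietic, 3 for epiblast and 4 for endoderm genes. They numbered 9 for Wnt receptors, effectors and targets, 1 for Wnt ligands and 4 for glycolysis genes. Cell cycle genes had 3 control-only regions, and Hox and 2-cell-stage genes had 0.

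Of 10 distal regions near Foxk1, its relative Foxk2 and corepressor partners, 2 were KO-only (20%, against 12.5% over all distal regions). In the same list 1 was control-only (10%), and counts this small cannot set the list apart from the background. The 2 KO-only regions lay inside the corepressor gene Sin3b and near Foxk1 itself. The Foxk1 region (chromosome 5, 142386864 to 142387013) lay 14484 bp from the gene, ranked at 90.5% and 91.4% of the KO lists, and had no summit in any library of days 5 and 10.

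At the edges of the rule, the closest regions kept had a control summit 1002 bp (near Mad2l1) and 1004 bp (inside Ctnna3) away, and a region near Vcan with one 995 bp away was left out. These 3 ranked between 66.2% and 89.3% of the KO lists. On gene distance, regions 10034 bp from Trpc6 and 10064 bp from Folh1 were kept, and regions 9987 bp from Dctn2 and 9978 bp from Gm6468 were left out.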

How the data were processed

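The submitters' processing notes name Bowtie2 2.2.4, MACS2 without a version, and the mm10 build. Summit scores were deposited by the authors as −log10, whether of p or of q being not given. Lists are per library, and Y and mitochondrial summits were left out of the main comparisons. Summits were merged by single linkage at 250 bp. Gene ends came from 21631 protein-coding genes of RefSeq GRCm38.p6. A rank is the place of a summit by score in its own list. A later summit within 250 bp counted as recurrence. The members and gene lists were chosen with earlier results of these data known. Regions named are the 10 best-ranked, those in both libraries of a later group (10 best-ranked at day 5), up to 4 per list, the 10 genes and 5 windows with most, and those at the thresholds. Genes of promoter windows, and the region of Gm5091 among them, were picked after their values were seen. Tests on the per-library shares permuted genotype within days 5 and 10 (exact, two-sided), with Benjamini-Hochberg adjustment. The rule was tested on simulated data. Python 3.11.15 and pandas 2.3.3 were used. Alternatives covered merging, absence and gene distances, list length, matching distance, replicate pairing and leaving out libraries. A few genes that these rules name are not reported here.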

Additional observations from a re-analysis of the deposited data

Results flagged for a closer look

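The Y chromosome was outside the main comparisons. The same rule applied there gave 27 distal KO-only regions of day 3 and 2 distal control-only regions, among 186 reproducible distal regions of which 124 were open in all 4 libraries. The KO-only share, 14.5%, lies within the 10.3% to 15.5% of the other chromosomes, and the control-only share was 1.08%, under their lowest of 7.62%. The KO libraries held 242 and 229 summits on Y and the control libraries 170 and 179. A signal above the control in data that no comparison used is what singled this out, and no test was made.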

How the results depend on the processing

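The count of 3708 regions became 2059 beyond 50 kb from gene ends and 345 when the KO summits had to be in the upper 50% of their lists, and ran from 5363 to 9133 with 1 library left out (6533 and 9133 without KO replicates 1 and 2, which loosens the rule). Under the other settings it was between 2890 and 4220. Both averaged differences kept their direction under every setting run. For the share of KO-only regions they ran from 0.108 to 15.4 percentage points, and from 8.69 to 18.2 with a library left out. For the share minus that of control-only regions they ran from 1.89 to 15.6, and from 6.53 to 15.6. Equal list lengths gave the low ends, 0.144 and 1.9 when the day 3 lists were shortened too; shortening the later lists alone (0.108 and 1.89) was chosen after seeing the data. No p was under 0.0556 by exact permutation, and no setting allows a lower one.

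With a replicate block, swapping genotype only between libraries of the same number and day, the differences stay 14.9 and 14.2 by construction, with exact permutation p of 0.25 and 0.125 (smallest possible 0.125). Deviations of same-numbered libraries correlated at −0.00368, −0.0911 and −0.0689 across shared regions of days 3, 5 and 10. These values show no pairing by number in the scores, but cannot tell whether same-numbered libraries were made together. Read depth is unknown, so a region without a summit may be open below what its library could call, most of all in control replicate 1 of day 5 and at day 10.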
